A study of Mus musculus with 32 samples.

Results

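The 3AB and Y721F macrophage lines were compared while both grew continuously in CSF-1. Each line is named for the CSF-1 receptor it carries, and both receptors lack Tyr-721, so the comparison sets side by side lines that share that loss and differ in other receptor tyrosines and in the line itself. The members are the 2 arrays of 3AB and the 2 arrays of Y721F whose titles mark growth in CSF-1, numbered I and II in each line, and they make 4 of the 32 arrays of the series. The series holds 4 mouse macrophage lines of an M-/- background on Affymetrix Mouse Gene 1.0 ST arrays: WT and 3ABY721 have Tyr-721, 3AB and Y721F do not. In the steady-state experiment each line was either starved of CSF-1 or grown in it (16 arrays), and WT and Y721F were also followed through a short CSF-1 time course (16 arrays). Medium for the grown cells was α-MEM, newborn calf serum and human recombinant CSF-1 at 120 ng/mL. The submitters call arrays I and II biological replicates. Which tyrosines of the 3AB receptor other than Tyr-721 differ from Y721F is not given in the sources used here. Each receptor was measured in 1 line, so receptor and line cannot be told apart.

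CSF-1 is the growth factor that keeps macrophages alive, dividing and differentiated. Its receptor is a tyrosine kinase at the cell surface that phosphorylates its own intracellular tyrosines, and each phosphorylated site recruits its own signalling proteins. Tyr-721 is known as a docking site for phosphoinositide 3-kinase, a lipid kinase that links the receptor to growth and movement of the cell.

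Duplicate arrays of a group correlated across genes at Pearson r between 0.987 and 0.996, and the medians over genes were 6.45 and 6.45 in the 3AB arrays and 6.56 and 6.60 in the Y721F arrays (log2 signal). Of the measured macrophage markers, 6 of 16 were higher in 3AB, 0 were lower and 10 were not called; their mean level was 10.34 and 10.32 in 3AB and 9.08 and 9.17 in Y721F. Lists of lymphocyte markers (12 measured) and of granulocyte and mast cell markers (18 measured) held 0 called genes, and their mean levels lay between 4.88 and 5.01 in the 4 arrays, near the low end of the genes' mean signals (4.93 is the limit under which a level is read as low here). The deposited arrays of Y721F did not all read alike. For 928 genes higher in 3AB than in Y721F when grown, the starved Y721F cells of the time course (0 min) read 0.59 higher in the median gene than the starved Y721F cells of the steady-state experiment, whereas the same median for WT was 0.04. For the 641 genes lower in 3AB, the same median in Y721F, taken in the direction of 3AB, was -0.07. At 0 min, WT lay on the 3AB side of Y721F for 80.9% of the 1569 genes that differed when grown (median 0.29). In the starved steady-state arrays the share was 89.4% (median 0.6). Ms4a6d had the widest gap among the 12 largest differences in each direction. It read 10.59 and 10.75 in Y721F at 0 min and 5.30 in the mean of the starved steady-state arrays. WT read 12.06 and 11.54 in the corresponding means. All results below rest on the steady-state arrays of Y721F, and the part of this difference in them was not tested.

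Between the lines 1569 of 19938 genes were called, which is 7.87% of the genes tested. A called gene has an adjusted p under 0.05 by limma with Benjamini-Hochberg adjustment and a fold above 1.5. Of these, 928 were higher in 3AB (4.65%) and 641 were lower (3.21%), and 220 were past a fold of 4 (129 higher and 91 lower). The median difference over all genes was -0.05 on the log2 scale, and 4808 genes had an unadjusted p under 0.05. When the arrays were centred on their medians, 75.5% of the calls were higher in 3AB instead of 59.1%, and the median of all genes moved to 0.07. The count depended on single libraries: it was 948 without 3AB I, 960 without 3AB II, 1073 without Y721F II and 2277 without Y721F I. Genes named below as higher or lower are called genes, differences are log2 values of 3AB minus Y721F, and each rests on 2 arrays a line.

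Cybb, the catalytic membrane subunit of the phagocyte NADPH oxidase, had the largest difference. It read 11.97 and 11.79 in 3AB and 4.99 and 5.05 in Y721F, which makes a difference of 6.86 (SE 0.34, adjusted p 1.06e-08). Y721F lay far below every other grown array, since WT averaged 10.89 and 3ABY721 10.36. Ifitm3, an interferon-induced membrane protein that restricts viral entry, read 11.10 and 10.94 in 3AB and 4.29 and 4.92 in Y721F, so that the lines differed by 6.42 (SE 0.79, adjusted p 7.21e-05). Mmp8, a secreted collagenase, read 11.80 and 11.83 in 3AB and 5.0 and 6.41 in Y721F, a difference of 6.11 (SE 0.47). Fcgr1, the high-affinity receptor for IgG, read 11.56 and 11.55 in 3AB and 5.99 and 6.12 in Y721F, so that the lines differed by 5.50 (SE 0.21, adjusted p 8e-10). In all 4 genes the Y721F pair lay below the 3AB pair without overlap, and the rest of the 12 largest differences in this direction were members of the MS4A family (Ms4a6c, Ms4a6d and Ms4a6b), C1qb, C1qc, Ifi44l, Cxcr4 and Cd84, the last at 4.38 (SE 0.24). Where Y721F read near or below 4.93, as for Ifitm3 and Ms4a6b, the size of the difference is limited by the low end of the signal.

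**Figure D1:**
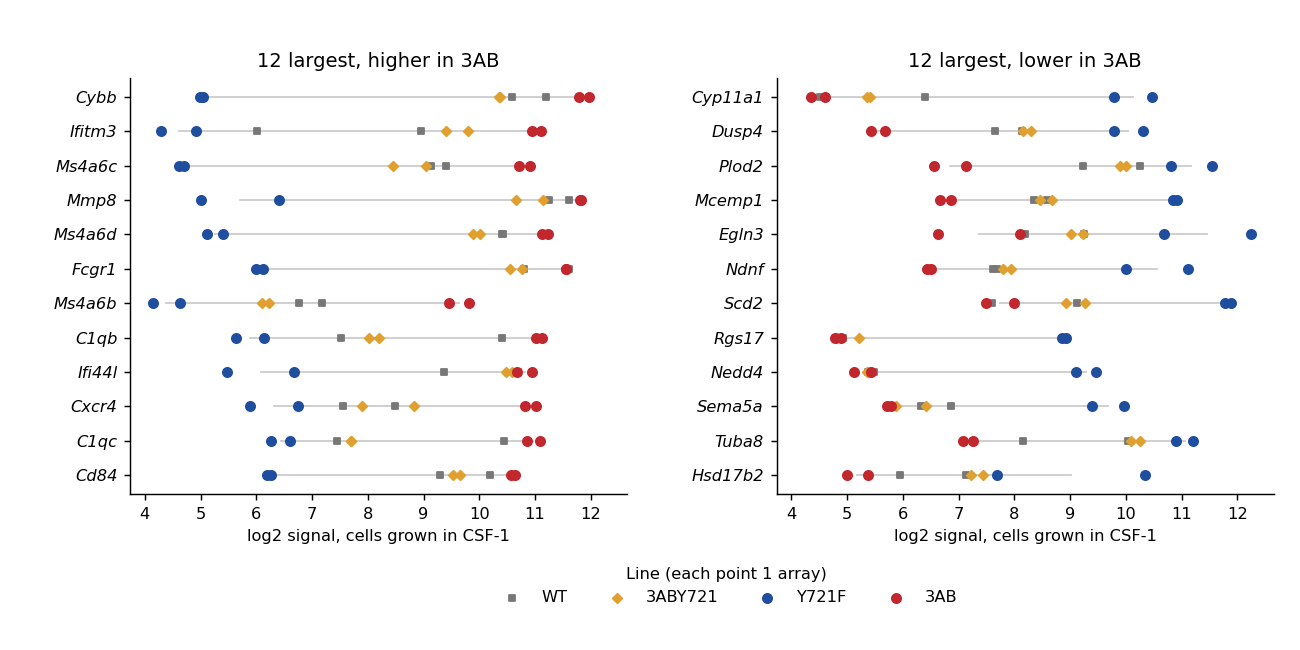
Log2 signal (x axis) of the 12 genes with the largest difference in each direction, 1 point per array of cells grown in CSF-1, with a grey line between the means of Y721F and 3AB. For Cybb the Y721F points sit at 4.99 and 5.05 and all other lines lie above 10, while Rgs17 and Nedd4 are high in Y721F alone.

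Among genes lower in 3AB, Cyp11a1, the mitochondrial enzyme that opens steroid hormone synthesis, differed most. It read 4.60 and 4.35 in 3AB and 9.79 and 10.47 in Y721F, so that the lines differed by -5.66 (SE 0.49, adjusted p 2.14e-06). Dusp4, a nuclear phosphatase that inactivates ERK-type kinases, read 5.42 and 5.67 in 3AB and 9.78 and 10.31 in Y721F, so that the lines differed by -4.50 (SE 0.24, adjusted p 2.25e-08). Plod2, a lysyl hydroxylase that prepares collagen for cross-linking, read 7.14 and 6.56 in 3AB and 10.80 and 11.54 in Y721F, a difference of -4.32 (SE 0.29). In each of these 3 genes both Y721F arrays lay above both 3AB arrays. Rgs17, which shortens G-protein signals, read 4.79 and 4.89 in 3AB against 8.92 and 8.85 in Y721F, a difference of -4.04 (SE 0.16), and Nedd4, a ubiquitin ligase, differed by -4.01 (SE 0.16). Cyp11a1 and Rgs17 read below 4.93 in 3AB, so the size of their difference is limited by the low end of the signal. The remaining genes among the 12 largest in this direction were Mcemp1, Egln3, Ndnf, Scd2, Sema5a, Tuba8 and Hsd17b2, from -4.12 to -3.83. Hsd17b2, a hydroxysteroid dehydrogenase, had the widest pair: Y721F read 7.68 and 10.35 against 5.37 and 5.0 in 3AB, and in a fit of the compared groups only its adjusted p was 0.0637.

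The levels of WT and 3ABY721, which have Tyr-721 and come from arrays that the comparison itself does not use as a contrast, place the difference among the lines. On a scale with Y721F at 0 and 3AB at 1, the median position over the 1569 genes was 0.73 for WT and 0.64 for 3ABY721. Both lay nearer 3AB for 910 genes (58.0%) and both nearer Y721F for 244 (15.6%). These genes were chosen by the same 3AB and Y721F values that form the ends of the scale, and shares over all genes are not given here. Rgs17 and Nedd4 were among the genes at which Y721F stood alone, since WT and 3ABY721 read 4.91 and 5.02 for Rgs17 and 5.43 and 5.38 for Nedd4. Twist1, a basic helix-loop-helix factor, and Peg10 and Sgce, imprinted neighbours on chromosome 6, had the same form and were chosen after their values were seen: Twist1 read 6.25 and 6.39 in 3AB and 9.47 and 9.82 in Y721F, and 6.11 and 6.44 in the means of WT and 3ABY721. Dusp4 and Plod2 had another form, with 3AB lowest: for Plod2 the means were 9.75 in WT and 9.96 in 3ABY721. Side by side and sharing these arrays, Y721F against WT gave 1572 called genes (7.88%), 3AB against 3ABY721 gave 236 (1.18%) and 3ABY721 against WT gave 51 (0.256%).

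Interferon-stimulated genes were the list with the largest share called. These genes are induced after type I interferon binds its receptor, and many encode proteins that bind viral RNA or block replication. Of 26 measured members, 20 were higher in 3AB and 0 were lower, with a median of 1.07 beside -0.05 over all genes. Ifit3, which binds foreign RNA as part of the IFIT complex, read 10.29 and 10.19 in 3AB and 6.57 and 5.99 in Y721F, so that the lines differed by 3.96 (SE 0.30, adjusted p 6.98e-07). Oasl2, of the oligoadenylate synthetase family, read 11.31 and 11.23 against 7.80 and 7.85, a difference of 3.44 (SE 0.22). In both genes the 4 arrays fell into separate pairs with at least the lower 3AB value above the higher Y721F value. Ifit2 differed by 2.76 (SE 0.29) and Mx1, a GTPase against viruses, by 2.62 (SE 0.27). The other members ranged from -0.22 to 2.52. For 19 of the 20, WT and 3ABY721 both lay nearer 3AB than Y721F, beside 61.4% of all genes called higher. The mean of the list was 9.80 and 9.73 in 3AB, 8.38 and 8.35 in Y721F, 9.47 and 10.00 in WT, and 9.74 and 9.62 in 3ABY721. In 3AB against 3ABY721, 0 of the 26 were called, where 1.18% of all genes were. With so low a share, a count of 0 does not show that these 2 lines match. All 20 were also called in starved cells. Without 3AB I, 13 members were called in place of 20.

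The start-site sequences of this list are shown because the 20 genes moved together. The 250 bases before the start were searched on both strands for GAAA, any 2 bases and GAAA, a core of the interferon-stimulated response element. Of 16 called members with a RefSeq promoter, 9 held it, against 3.4% of 15614 measured genes (531 genes). The 3 with the largest difference between the lines are given 5′ to 3′ in the direction of the gene, from RefSeq promoters of build GRCm38.p6, with the matched letters or their reverse complement in capitals. They lie at chr19:34583358-34583397 on the plus strand for Ifit3, chr3:142559984-142560023 on the plus strand for Gbp3 and chr19:34640770-34640809 on the plus strand for Ifit1.
Ifit3: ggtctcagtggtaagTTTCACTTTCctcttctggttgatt
Gbp3: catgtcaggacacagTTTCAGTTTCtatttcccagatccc
Ifit1: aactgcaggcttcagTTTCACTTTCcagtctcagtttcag
The capitals begin 156 bases before the start of Ifit3, 45 before that of Gbp3 and 104 before that of Ifit1. A match describes letters in the window and does not show binding. Gbp3, a guanylate-binding GTPase, differed by 2.37 and Ifit1, a sensor of foreign RNA ends, by 2.36.

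Receptors for microbial products were also higher in 3AB. Of 22 measured Toll-like receptors and coreceptors, 12 were higher and 0 lower (median 0.82). Tlr7, an endosomal receptor of single-stranded RNA, read 10.08 and 9.94 in 3AB and 6.56 and 5.87 in Y721F, so that the lines differed by 3.80 (SE 0.18, adjusted p 5.56e-09). Ly86, the MD-1 partner of the receptor homologue Cd180, read 9.30 and 9.14 against 5.22 and 5.47, a difference of 3.88 (SE 0.41). Both genes separated the lines with no overlap, but the other lines differed: WT averaged 9.87 for Tlr7 and 5.4 for Ly86, and 3ABY721 averaged 9.80 and 7.08. Tlr1, which pairs with Tlr2 to bind lipopeptides, differed by 2.38 (SE 0.22) and Tlr8, the neighbour of Tlr7 on the X chromosome, by 2.18 (SE 0.23). Cd14, the coreceptor that hands lipopolysaccharide to Tlr4, measured 0.10 (95% interval -0.43 to 0.64, adjusted p 0.837).

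Genes of the C-type lectin and MS4A families, which sit in clusters on chromosomes 6 and 19, were called in 1 direction. C-type lectins and siglecs recognise sugars on microbes and on self, and 12 of 30 measured members were higher in 3AB with 0 lower (median 0.41). Clec7a, dectin-1, which binds fungal beta-glucan, read 9.79 and 9.79 in 3AB and 5.28 and 5.67 in Y721F, so that the lines differed by 4.32 (SE 0.19, adjusted p 3.58e-09). Clec2d differed by 3.16 (SE 0.37), Clec4a1 by 3.08 (SE 0.36) and Clec4a2, an inhibitory receptor, by 3.00 (SE 0.23). WT and 3ABY721 lay between the lines for Clec7a, at 7.52 and 8.05. Among 15 measured MS4A genes, which encode membrane proteins with several transmembrane passes, 7 were higher and 0 lower (median 0.58). Ms4a6c read 10.91 and 10.71 in 3AB and 4.70 and 4.61 in Y721F, a difference of 6.16 (SE 0.21). Ms4a6d read 11.23 and 11.13 against 5.41 and 5.11, a difference of 5.92 (SE 0.16), and Ms4a6b 9.81 and 9.46 against 4.14 and 4.63, a difference of 5.25 (SE 0.21). Ms4a7 differed by 3.89 (SE 0.22). For each of these 4 genes both 3AB arrays exceeded both Y721F arrays, and for Ms4a6b the means of WT (6.98) and 3ABY721 (6.16) fell in the middle. In 3AB against 3ABY721, which shares the 3AB arrays, 6 of the 15 were higher in 3AB, where 0.542% of all genes were.

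The C1q chains of complement were highest in 3AB among the 4 grown lines. Of 20 measured complement genes, 7 were higher and 1 lower (Itgax, a complement receptor subunit, at -0.73), with a median of 0.23. The chains of C1q, which bind antibody complexes and dying cells and start the classical pathway, are neighbours on chromosome 4. C1qb read 11.02 and 11.13 in 3AB and 6.14 and 5.64 in Y721F, so that the lines differed by 5.18 (SE 0.69, adjusted p 0.000166). C1qa read 10.16 and 10.27 against 6.21 and 6.44, a difference of 3.89 (SE 0.60), and C1qc differed by 4.53 (SE 0.72). WT and 3ABY721 lay between, at 7.80 and 6.97 for C1qa and at 8.96 and 8.11 for C1qb, and the WT arrays of C1qb lay apart from each other, at 10.41 and 7.51. C4b, which is cleaved by C1, differed by 3.24 (SE 0.18), with WT at 5.66 near Y721F. Without Y721F II, Itgax measured -0.53 with an adjusted p of 0.262; it measured -0.83 (adjusted p 0.0934) without 3AB I and -0.64 (adjusted p 0.213) without 3AB II.

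Of 23 genes for uptake of apoptotic cells, 6 were higher and 2 lower (median 0.04). Mertk, a receptor tyrosine kinase that binds dying cells through bridging proteins, read 8.65 and 8.44 in 3AB and 5.43 and 5.48 in Y721F, so that the lines differed by 3.09 (SE 0.17, adjusted p 2.48e-08). Cd93 differed by 2.45 (SE 0.18) and Stab1, a scavenger receptor for phosphatidylserine, by 2.31 (SE 0.25). Megf10, another engulfment receptor, was lower, at 5.79 and 5.67 in 3AB against 8.32 and 8.26 in Y721F, a difference of -2.56 (SE 0.21). The second lower gene was Mfge8, a bridging protein named after its value was seen, at -1.38 (SE 0.26). The list held genes in both directions, and the 3AB and Y721F pairs did not overlap for Mertk or Megf10.

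Antigen presentation followed the same direction. Of 15 measured genes of the MHC class I pathway, 9 were higher and 0 lower (median 1.08), among them H2-T24 at 2.12 (SE 0.31), H2-Q4 at 1.66 (SE 0.25), H2-T10 at 1.65 (SE 0.23) and Psmb8, a subunit of the immunoproteasome, at 1.48 (SE 0.25). Psmb8 read 10.97 and 11.05 in 3AB and 9.56 and 9.51 in Y721F. Of 12 measured genes of the class II list, 6 were higher and 0 lower (median 0.81). The largest value in that list, 3.88, is that of Ly86, which is also counted above with the Toll-like receptors and coreceptors. The 6 higher genes of the class II list thus include Ly86. H2-DMa, which helps load peptide, read 6.98 and 7.06 against 5.73 and 5.66, a difference of 1.32 (SE 0.27). H2-Aa, a class II chain that dendritic cells carry at high level, read 7.38 and 7.85 in 3AB and 5.14 and 4.92 in Y721F, so that the lines differed by 2.58 (SE 0.73, adjusted p 0.0354). Its call was lost without any 1 of the 4 arrays, with adjusted p from 0.0753 (without Y721F I) to 0.198 (without 3AB II). H2-Aa also belongs to the 13 dendritic cell markers. Of the other 12, 0 were higher and 1 was lower (Itgax), beside 4.65% and 3.21% of all genes, with a median of -0.04. The mean level of the 13 was 5.93 and 6.0 in 3AB and 5.74 and 5.89 in Y721F, and its part in the class II values was not tested. Of 18 costimulatory and coinhibitory ligands, 5 were higher (Cd48, Slamf7, Cd86, Icosl and Lgals9) and 1 lower. Lgals9 had an adjusted p of 0.0977 without 3AB I, 0.0869 without 3AB II and 0.0667 without Y721F II. Cd86, which costimulates T cells, was higher by 2.46 (SE 0.25) and Cd80, which binds the same receptors, was lower, at -1.64 (SE 0.21): Cd80 read 6.75 and 6.49 in 3AB, 8.30 and 8.22 in Y721F, 8.75 in WT and 8.68 in 3ABY721.

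Called chemokines and chemoattractant receptors were mostly higher in 3AB. Growth factors and their receptors went both ways, with 5 of 38 measured higher and 4 lower, beside 4.65% and 3.21% of all genes. Of 26 measured chemokines, 7 were higher and 1 lower (median 0.31); the lower one was Cx3cl1 at -0.77, named after its value was seen, with an adjusted p of 0.104 without 3AB I and a difference of -0.60 (adjusted p 0.0537) without Y721F I. Ccl6 read 11.29 and 11.23 in 3AB and 8.5 and 8.43 in Y721F, a difference of 2.80 (SE 0.35), and Cxcl10, which attracts activated T cells, differed by 2.38 (SE 0.37). The number of called chemokines was 3 without 3AB I, 4 without 3AB II, 5 without Y721F I and 5 without Y721F II. Of 23 chemoattractant receptors, 7 were higher and 0 lower (median 0.27). Cxcr4, the receptor for Cxcl12, read 10.82 and 11.02 in 3AB and 5.89 and 6.74 in Y721F, so that the lines differed by 4.61 (SE 0.35, adjusted p 5.94e-07). P2ry13 and P2ry12, receptors for extracellular ADP that neighbour each other on chromosome 3, differed by 2.89 (SE 0.29) and 1.64 (SE 0.20). Tnf, the inflammatory cytokine, read 9.78 and 9.38 in 3AB and 8.62 and 8.31 in Y721F, so that the lines differed by 1.12 (SE 0.30, adjusted p 0.0271). Its adjusted p was 0.213 without 3AB I, 0.0597 without 3AB II and 0.183 without Y721F II. Il10, which restrains macrophages, measured 0.42 (adjusted p 0.11), and Il1b measured 0.20 (adjusted p 0.738).

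**Figure D2:**
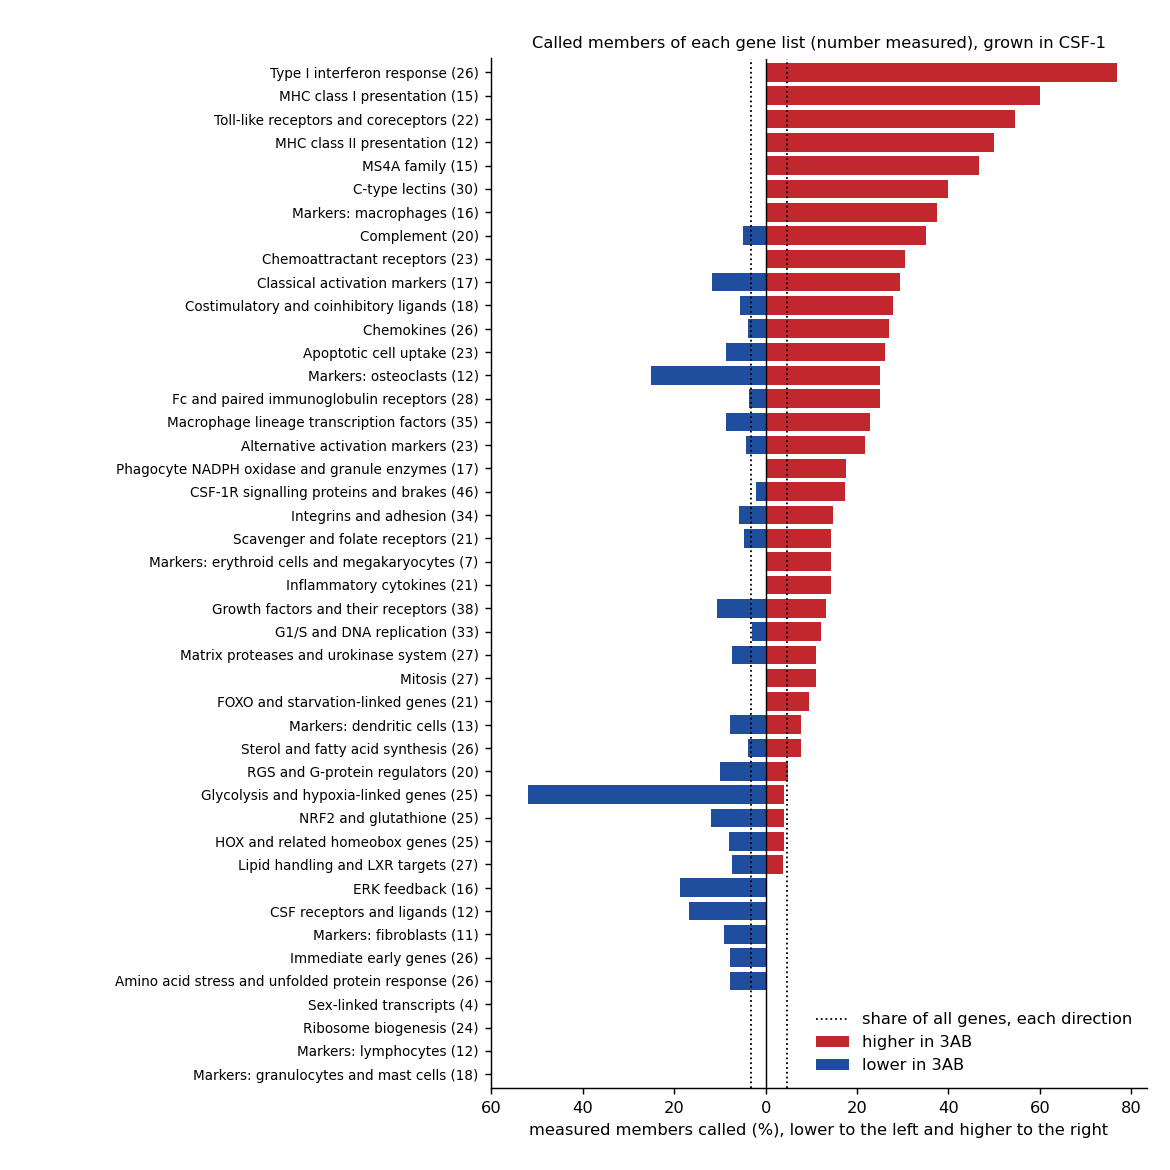
Share of each list's measured members (number in brackets) called higher in 3AB (red, to the right) or lower in 3AB (blue, to the left) among cells grown in CSF-1, in percent; dotted lines mark the share of all genes, 4.65% higher and 3.21% lower. Type I interferon response lies at the top with 20 of 26 higher, and glycolysis and hypoxia-linked genes reach farthest to the left with 13 of 25 lower.

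The receptor itself was not called. Among signalling proteins and brakes downstream of it, 37 of 46 were not called, and the called share exceeded the 7.87% of all genes. Over all genes 4.65% were higher and 3.21% lower. Csf1r read 13.04 and 13.07 in 3AB and 12.83 and 12.72 in Y721F, a difference of 0.28 (95% interval 0.03 to 0.53, adjusted p 0.157). Whether its probes cover the mutated codons was not examined. Of 12 receptors and ligands of the CSF family, 0 were higher and 2 lower (median -0.35). Csf1, the ligand, read 6.07 and 5.61 in 3AB and 6.54 and 6.98 in Y721F, so that the lines differed by -0.92 (SE 0.26, adjusted p 0.0345), and Il34, the other ligand of the receptor, measured -0.71 (SE 0.19, adjusted p 0.0267). Neither held up: the list had 0 called members without 3AB II, 0 without Y721F II, 1 without 3AB I, 4 without Y721F I, and 0 after quantile normalization or median centring. For Csf1 the adjusted p was 0.0511 without 3AB I, 0.282 without 3AB II and 0.254 without Y721F II, and for Il34 it was 0.268 without 3AB II and 0.175 without Y721F II. Of 46 signalling proteins and brakes downstream of the receptor, 8 were higher and 1 lower (median 0.12), and 5 were called without 3AB II. Smpdl3b, a lipid phosphodiesterase, read 10.30 and 10.33 in 3AB and 8.55 and 7.97 in Y721F, a difference of 2.06 (SE 0.18). Grap2, an adaptor, differed by 1.91 (SE 0.28) and Pik3cg, a catalytic PI3K subunit used by G-protein receptors, by 0.96 (SE 0.14). Pik3cd, the leukocyte PI3K catalytic subunit, measured 0.77 (SE 0.19, adjusted p 0.0201), with adjusted p of 0.101 without 3AB I, 0.124 without 3AB II and 0.235 without Y721F II. Pik3r1, the regulatory subunit that docks on the receptor, measured 0.20 (95% interval -0.07 to 0.47), and Plcg2, a phospholipase downstream of the receptor, -0.07 (95% interval -0.34 to 0.20). Src, the membrane tyrosine kinase, was lower, at 6.95 and 7.16 against 8.29 and 8.76, a difference of -1.47 (SE 0.26).

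The genes called among ERK feedback and the immediate early response were lower in 3AB. Over all genes 7.87% were called in either direction, and the immediate early share lay near it. Of 16 genes of ERK feedback, 0 were higher and 3 lower, with a median of -0.13: Dusp4, Spry2 at -1.60 (SE 0.26) and Etv4 at -0.78 (SE 0.16); Etv4 measured -0.63 (adjusted p 0.0968) without 3AB I. Spry2, a brake on receptor kinases, read 5.68 and 5.83 in 3AB and 7.02 and 7.70 in Y721F. Of 26 immediate early genes, which growth signals switch on without new protein synthesis, 0 were higher and 2 lower (median -0.15): Fosl2 at -1.09 and Fosl1 at -0.88, both of the AP-1 family. The list had 1 called member without 3AB I, 0 without 3AB II, 6 without Y721F I and 3 without Y721F II. Fosl1 read 7.0 and 7.06 in 3AB and 8.04 and 7.77 in Y721F, with adjusted p of 0.104 without 3AB I, 0.0804 without 3AB II and 0.0805 without Y721F I. For Fosl2 the adjusted p was 0.136 without 3AB II and 0.132 without Y721F II. Dusp6, the cytoplasmic ERK phosphatase, read 11.20 and 10.43 against 10.37 and 10.48, so that the lines overlapped (adjusted p 0.525). Egr1, an immediate early factor, read 8.23 and 6.26 in 3AB and 6.33 and 8.12 in Y721F, a spread within each line that exceeded the difference of 0.02. Myc measured -0.80 (adjusted p 0.295), Ccnd1, the cyclin of early G1, 0.32 (adjusted p 0.692), Arg1, arginase, 0.64 (adjusted p 0.637) and Pdcd4, a translation inhibitor, -0.18 (adjusted p 0.724), and each of these 4 also had overlapping arrays. Mitotic genes gave 3 higher (Nusap1, Kif11 and Cdc25c, from 0.60 to 0.67) and 0 lower of 27, beside 4.65% and 3.21% of all genes. The mitotic list had 0 called members without 3AB I, without 3AB II, with all 32 arrays in the fit and in a fit of the compared groups only, 1 without Y721F II or after quantile normalization, and 5 after median centring. Ribosome biogenesis genes gave 0 called of 24 (median 0.32) and 10 without Y721F I. The array means of that list were 9.66 and 9.77 in 3AB and 9.92 (I) and 8.97 (II) in Y721F.

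Macrophage identity differed gene by gene. Spi1, the transcription factor that founds the lineage, measured -0.13 (95% interval -0.38 to 0.13), Cd68, a lysosomal protein, 0.12 (95% interval -0.14 to 0.39) and Itgam, an integrin chain, 0.01 (95% interval -0.28 to 0.30); these 3 were chosen after their values were seen. Of 35 lineage transcription factors, 8 were higher and 3 lower (median 0.08), and 6 were called without 3AB I and 5 without 3AB II. Irf8, a factor of the monocyte and dendritic lineages, read 9.24 and 9.14 in 3AB and 6.77 and 7.40 in Y721F, a difference of 2.10 (SE 0.22), and Zeb2 differed by 0.83 (SE 0.14). Bhlhe40 (-1.66), Gata6 (-0.92) and Pparg (-0.73) were lower. Pparg measured -0.65 (adjusted p 0.0969) without 3AB I and -0.50 (adjusted p 0.114) without Y721F II, and Gata6 -0.75 (adjusted p 0.0567) without 3AB II. In a fit of the compared groups only, the adjusted p was 0.0618 for Bhlhe40 and 0.0964 for Pparg. Lyz2, lysozyme, read 13.13 and 13.07 in 3AB and 11.43 and 11.25 in Y721F, a difference of 1.76 (SE 0.15), and Mrc1, the mannose receptor, 9.15 and 9.17 against 7.23 and 7.78, a difference of 1.66 (SE 0.23), with an adjusted p of 0.234 when all 32 arrays were fitted. Adgre1, a surface antigen of mature macrophages, measured 0.80 (SE 0.17, adjusted p 0.00624), with adjusted p of 0.0588 without 3AB II and 0.064 without Y721F II. Among fibroblast markers 1 of 11 was called, a share near the 7.87% of all genes. Pdgfra, a receptor for platelet-derived growth factor, was lower in 3AB at 5.49 and 5.94 against 7.86 and 9.33 (difference -2.88, SE 0.36), whereas Col1a1, chosen after its values were seen, measured -0.38 (adjusted p 0.207). The fibroblast list averaged 5.49 and 5.60 in 3AB and 5.86 and 6.04 in Y721F. Kitl, the ligand of Kit, was lower at 7.13 and 7.19 against 10.20 and 10.31 (difference -3.10, SE 0.31). Xist and Eif2s3y read low in both lines, at 4.12 and 4.13 (3AB) and 4.55 and 4.52 (Y721F) for Xist and from 3.29 to 3.46 for Eif2s3y.

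Genes linked to hypoxia and glycolysis were the list with the largest share lower in 3AB. Cells short of oxygen stabilise hypoxia-inducible factor, which raises glucose uptake, glycolysis and blood vessel signals; many of these genes also answer other growth signals. Of 25 measured members, 13 were lower and 1 higher (Pfkfb3, chosen after its value was seen), with a median of -0.90. Egln3, the prolyl hydroxylase that marks hypoxia-inducible factor for destruction, read 8.10 and 6.63 in 3AB and 10.68 and 12.25 in Y721F, so that the lines differed by -4.10 (SE 0.53, adjusted p 0.000129). Slc2a3, a glucose transporter, read 6.52 and 6.38 against 8.09 and 8.54, a difference of -1.86 (SE 0.17). Bnip3, a mitophagy receptor, read 10.07 and 9.33 against 11.40 and 12.74, a difference of -2.37 (SE 0.47), and Vegfa, the vessel growth factor, 8.39 and 7.28 against 9.01 and 11.66, a difference of -2.50 (SE 0.63). In these genes both Y721F arrays lay above both 3AB arrays, and Y721F II lay above Y721F I while 3AB II lay below 3AB I.

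The list moved with single arrays. Its mean level was 10.25 and 9.96 in 3AB I and II and 10.81 and 11.62 in Y721F I and II. Of its 14 calls, 5 were kept without Y721F II, 5 without 3AB II, 11 without 3AB I and 3 in a fit of the compared groups only; without Y721F I all 14 were kept and 20 members were called. Vegfa measured -1.18 (adjusted p 0.24) without Y721F II and -1.94 (adjusted p 0.201) without 3AB II; Bnip3 measured -1.70 (adjusted p 0.0763) and -2.0 (adjusted p 0.0691); Pfkfb3 measured 0.57 (adjusted p 0.295) without Y721F II, 0.77 (adjusted p 0.203) without 3AB II and 0.92 (adjusted p 0.115) without 3AB I. Oxygen and cell density are not given in the labels used here, and the part of either in these values was not tested. In starved cells 3 of the 25 were lower: Egln3 at -2.99, Pfkp, a phosphofructokinase, at -0.79 and Slc2a3 at -0.74.

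**Figure D3:**
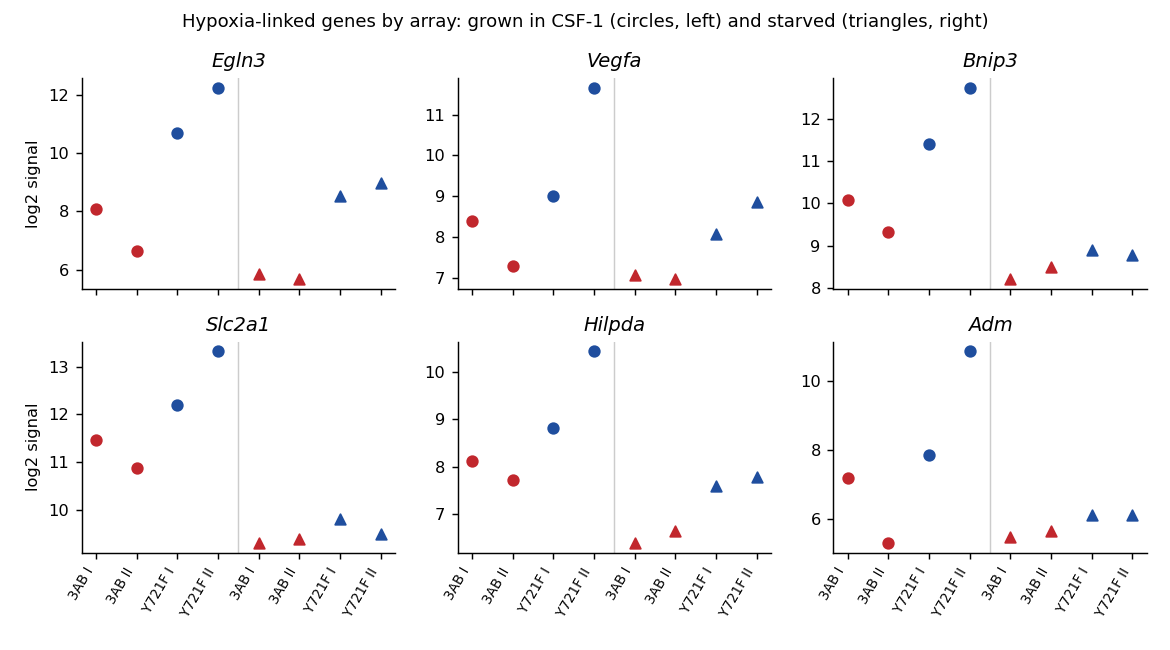
Log2 signal (y axis, scaled per gene) of 6 hypoxia-linked genes in each 3AB (red) and Y721F (blue) array, grown in CSF-1 (circles) and starved (triangles); Slc2a1, Hilpda and Adm were chosen after their values were seen. Y721F II is the highest grown array for each gene, for example 11.66 for Vegfa against 9.01 in Y721F I.

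Promoter windows of this list are shown because its 13 lower members differ in 1 direction. The letters ACGTG, the core of the hypoxia response element, were searched on both strands in the same windows. Of 12 called lower members with a promoter entry, 8 held them, against 20.9% of measured genes (3266 of 15614); a motif of this length is common. The 3 with the largest difference are given in the direction of the gene, with the matched letters or their reverse complement in capitals, from the same RefSeq build. They lie at chr12:54204084-54204118 for Egln3, chr17:46025355-46025389 for Vegfa and chr7:138909595-138909629 for Bnip3, all on the minus strand.
Egln3: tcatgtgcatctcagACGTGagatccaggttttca
Vegfa: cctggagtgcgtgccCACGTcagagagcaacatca
Bnip3: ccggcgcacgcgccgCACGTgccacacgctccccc

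Starved cells of the same lines gave 1518 called genes (7.61%), 1012 higher (5.08%) and 506 lower (2.54%) in 3AB. The grown and starved differences come from separate arrays. Their p-values rest on the same variance of each gene, from a joint fit, so the calls in the conditions are not independent. Called in both conditions were 908 genes, which is 57.9% of the grown calls and 59.8% of the starved calls, and all 908 had the same direction. Of the 1569 grown calls, 1523 (97.1%) had the same sign in starved cells, where the share over all genes was 73.2%; their median difference was 0.94 grown and 0.73 starved in the same direction. Ms4a6c measured 7.28 starved and 6.16 grown. Sema5a measured -3.86 starved and -3.92 grown. Without 3AB starved II, 722 genes were called in starved cells, and without Y721F starved II 957.

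Whether the gap between the lines depended on CSF-1 was tested as a difference of differences, and 15 genes were called (0.0752%), 9 with a positive (0.0451%) and 6 with a negative value (0.0301%). Dusp4 differed by -4.50 grown and by -1.23 starved, a change of -3.28 (adjusted p 0.000859). It read 5.47 starved in the mean of 3AB and 6.70 in that of Y721F, and the difference between grown and starved cells was 3.35 in Y721F and 0.07 in 3AB. Rgs17 and Plce1, a phospholipase that small GTPases activate, changed by -2.36 and -2.48, and Gpr39, a zinc-sensing receptor, by -1.96. In the other direction Clec7a changed by 2.12 and Adap2 by 2.13: Clec7a measured -1.51 in grown against starved 3AB cells and -3.64 in Y721F. The count was small and unstable, at 200 without Y721F grown I, 7 without 3AB grown I, 5 without 3AB grown II, 6 without either 3AB starved array and 3 without Y721F starved II. Dusp4 and Plce1 kept their call in all the alternatives run. Growth in CSF-1 itself called 985 genes in Y721F (4.94%) and 137 in 3AB (0.687%), values that share these arrays.

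The direction also varied with the chromosome of the gene. Among genes with a mean log2 signal above 7, a floor chosen after the data were seen, the median difference was 0.37 on chromosome 16 and -0.15 on chromosome 8, beside 0.08 over all of them.

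**Figure D4:**
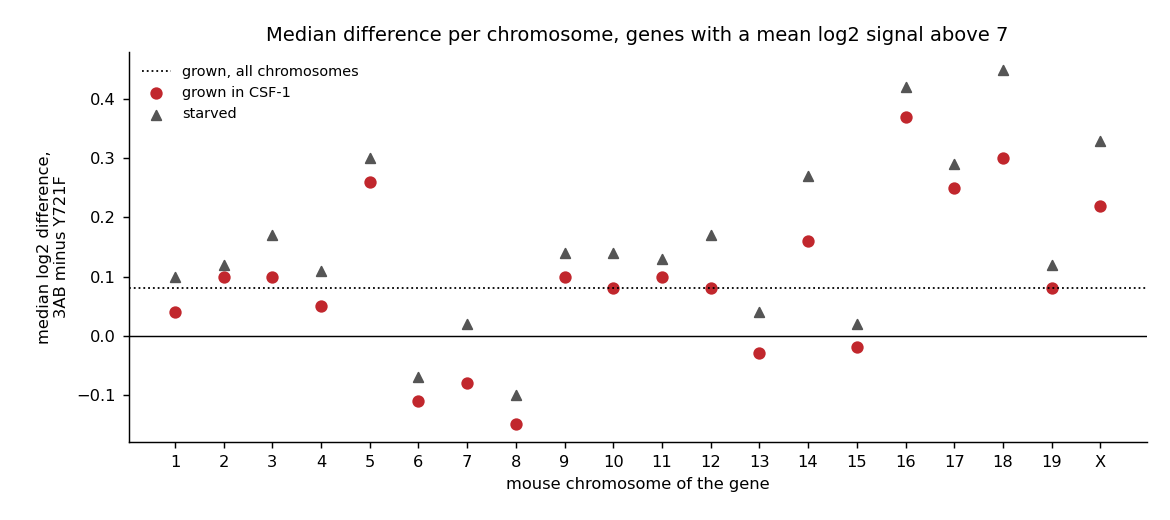
Median log2 difference, 3AB minus Y721F (y axis), of genes with a mean log2 signal above 7 on each mouse chromosome (x axis), for cells grown in CSF-1 (red circles) and starved (grey triangles); the dotted line is the median over all chromosomes in grown cells, 0.08. Chromosome 16 has the highest grown median at 0.37.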

How the data were processed

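The deposited table holds log2 signals of 35556 probe sets on 32 arrays. Its log2 scale was inferred from the range of the values. Not given in the sources used here is how the authors normalized and summarized these signals, or on which genome build. The array annotation pairs 21789 probe sets with 1 gene, and 1621 that name several genes and 12146 without an entry were left out. Each of 19938 genes was read from its probe set with the highest mean. The 16 steady-state arrays (8 groups of 2) were fitted in limma 3.58.1 (R 4.3.3; functions lmFit and eBayes) without a block, on 8 residual and 6.33 prior degrees of freedom, and p-values were adjusted by Benjamini-Hochberg over all genes. A gene is called at an adjusted p under 0.05 and a fold above 1.5. Position, starved, difference-of-differences and list values come from the same fit. The fit was tested on simulated data. Tests were two-sided. Precision is limited by how many arrays there are. Nothing in the labels shows that arrays I and II are separate cultures beyond the submitters' term, so p-values measure the spread between these arrays.

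The members and the 44 gene lists (942 genes, 865 measured) were chosen with earlier results of these data known. Named genes are the 12 largest called differences each way, up to 4 called members of a list, the 4 largest changes each way between grown and starved cells and a set of fixed genes, given with both arrays of each line apart; further genes named in the text, among them Ifit1, Gbp3, Icosl, Lgals9 and Pfkp, were chosen after their values were seen. The labels do not tie arrays of the same number across groups. Their deviations correlated at -0.103 between 3AB and Y721F grown. Of 28 pairs of groups 6 lay above 0.1, 3 of them between lines (at most 0.283, WT grown with Y721F grown). The other 3 joined grown and starved arrays of 1 line (WT 0.255, Y721F 0.12 and 3ABY721 0.28), beside 0.042 in 3AB. The number was not taken to pair the arrays, and the main fit leaves out any such link within a line. Alternatives were the series text's cutoff, a replicate block, all 32 arrays, the compared groups only, quantile normalization, median centring, the mean of probe sets, leaving out dim genes (mean below 4.93), an intensity trend and leaving out each array.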

Additional observations from a re-analysis of the deposited data

Results flagged for a closer look

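The difference between 3AB and Y721F was itself tested between grown and starved cells, and 10 named genes differed (limma, adjusted over all genes). The gap became more negative with CSF-1 for Dusp4 (-3.28), Plce1 (-2.48), Rgs17 (-2.36) and Gpr39 (-1.96), the zinc-sensing receptor, which read 7.02 and 7.10 in Y721F grown and 5.18 and 4.93 in 3AB grown. It became more positive for Lyz2 (1.33), Mertk (1.57), Clec4a3 (1.80), Clec7a (2.12), Adap2 (2.13) and Vaultrc5 (2.20), a vault RNA. All 6 of these were higher in 3AB when grown, Lyz2 and Vaultrc5 without a call in starved cells. Dusp4 and Plce1 kept their call in every alternative run. Rgs17 lost it with all 32 arrays in the fit (adjusted p 0.0726), and the other 7 lost it in at least 1 alternative.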

How the results depend on the processing

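Of 156 called genes in the main set of named genes, 104 kept their call in every alternative, 52 lost it in at least 1 and 0 changed direction. This count leaves out genes named later, of which Cx3cl1, Icosl and Lgals9 lost their call in at least 1 alternative. Icosl lost it in the limma fit of the compared groups only (difference 1.03, adjusted p 0.0603). In a fit of the compared groups only, 962 genes were called when grown, 596 higher and 366 lower, and 9 in the difference of differences. With median centring 1418 were higher in 3AB. The difference of differences gave 658 under the unadjusted cutoff of the series text, which adjusts no p-value, and 8 with all 32 arrays. Leaving out 1 array gave 948 to 2277 genes grown (550 to 1244 higher, 376 to 1033 lower), 722 to 1587 starved and 3 to 200 for the difference of differences. With replicate number as a block, 1602 genes were called grown (953 higher and 649 lower), 1546 starved and 14 in the difference of differences; of the named genes Folr2 (0.82, adjusted p 0.0574) and Clec4a3 (1.80, adjusted p 0.0585) lost their call. A crossed pairing, added after seeing the data, gave 1638, 1582 and 13. Genes that changed sign were all uncalled. They were Itgam (-0.06) under quantile normalization; Eif2s3y (0.11), Plcg2 (0.06), Spi1 (0.00) and Trem2 (0.08) under median centring; Arg1 (-0.44), Egr1 (-0.96), Il1b (-0.13), Itgam (-0.03) and Trem2 (0.02) without 3AB I; Eif2s3y (0.03) without 3AB II; Cd14 (-0.06), Egr1 (-0.88), Itgam (-0.08) and Trem2 (0.02) without Y721F I; and Ccnd1 (-0.36), Eif2s3y (0.07) and Pdcd4 (0.24) without Y721F II. At the other end of the range over left-out arrays stood Arg1 1.72 and Il1b 0.54 (without 3AB II), Cd14 0.26 and Itgam 0.09 (without Y721F II) and Eif2s3y -0.10 and Pdcd4 -0.59 (without Y721F I). The cause of these changes was not tested.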

Other observations

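Genes with a mean log2 signal above 7, a floor chosen after the data were seen, differed in their median between chromosomes. On chromosome 16 the median difference of 288 genes was 0.37 grown and 0.42 starved, against 0.08 and 0.13 over all 8977 genes. Of the 288, 72 were higher in 3AB when grown (25.0%) and 7 lower (2.43%). Over all 8977 genes the shares were 8.74% and 4.08%. The 4 pairs of one 3AB and one Y721F grown array gave 0.33 to 0.42 for chromosome 16. With a floor of 5 the median was 0.16 and with a floor of 9 it was 0.39. At the floor of 7, the next highest medians were on chromosomes 18 (0.30), 5 (0.26), 17 (0.25) and X (0.22). The lowest were on chromosomes 8 (-0.15) and 6 (-0.11). Most of the rest also lay above 0, such as chromosome 14 (0.16), whereas 7 (-0.08), 13 (-0.03) and 15 (-0.02) lay below. WT and 3ABY721 minus Y721F, which share the Y721F arrays, had medians of 0.37 and 0.25 on chromosome 16, and 3AB minus WT 0.01. Neighbouring genes there include Ifnar2, Il10rb, Ifnar1 and Ifngr2, receptor chains of interferons and Il10, which were higher in 3AB by 0.77, 0.78, 1.25 and 0.64 and were chosen after their values were seen. Ifnar2 lost its call in the fit of the compared groups only (adjusted p 0.067) and without Y721F I (its fold measured 0.57 on the log2 scale), and Il10rb without 3AB II (adjusted p 0.0531). Chromosome copy number was not measured.

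Osteoclast markers were called in both directions, 3 higher and 3 lower of 12, beside 4.65% and 3.21% of all genes. Atp6v0d2, a subunit of the proton pump, read 8.63 and 8.63 in 3AB and 11.11 and 11.24 in Y721F, and Acp5, the tartrate-resistant phosphatase, 9.69 and 9.52 against 7.77 and 7.72. Of the 12, 0 were called without 3AB I, 1 without 3AB II, 3 without Y721F I and 2 without Y721F II. Acp5 had an adjusted p of 0.0997 without 3AB I, 0.0686 without 3AB II and 0.0808 without Y721F II, and Atp6v0d2 from 0.0998 to 0.189 over the 4 arrays left out.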
